A study of Mus musculus with 34 samples.

Results

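Heat shock proteins and their DnaJ partners were followed in mouse spinal cord after injury. Members were taken by name, as every gene whose symbol begins with Hspa, Hspb, Hspd, Hspe, Hsph, Hsp90 or Dnaja, Dnajb or Dnajc with a number. The arrays name 72 such genes among 18193, and 60 of them had signal above background and were tested, out of 11993 tested genes. The pattern also takes Hspbap1, Hspbp1 and Hspb11, which carry the letters but are not small heat shock proteins. Hsp90ab1, the constitutive cytosolic HSP90, is not among the probe sets with 1 gene symbol and is not analysed here.

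The mice were wild type (WT) or trkB.T1 null (knockout, KO), which lack the truncated, kinase-free form of the receptor of brain-derived neurotrophic factor. Sham mice of each genotype had surgery that left the cord intact, and the others had a spinal cord injury (SCI) 1, 3 or 7 days before the cord was taken. There were 4 WT sham, 5 WT day 1, 4 WT day 3 and 4 WT day 7 arrays, and 4 KO sham, 4 KO day 1, 5 KO day 3 and 4 KO day 7 arrays, 34 in all. Strain, age, sex, the site of the cord taken and the force of the injury are not given in the sources used here. The labels do not say that arrays are separate animals, so the p-values measure only the spread between these samples. The number of arrays limits the precision.

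HSP70 proteins bind unfolded stretches of other proteins and release them in a cycle driven by ATP. DnaJ proteins, also called J proteins or HSP40s, deliver the client and switch on the ATPase of HSP70, and nucleotide exchange factors such as the HSP110 proteins and BAG proteins reset it. HSP90 finishes the folding of kinases and steroid receptors, small heat shock proteins hold unfolded proteins without ATP, and HSP60 with HSP10 forms a folding chamber in mitochondria. In the cytosol and nucleus heat shock factor 1 switches these genes on through heat shock elements. In the endoplasmic reticulum (ER) the unfolded protein response does so through ER stress response elements.

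These elements were looked for from 250 bases before to 50 bases after the RefSeq start sites (mouse build GRCm38.p6), on both strands. A promoter entry was found for 59 of the 72 genes and for 50 of the 60 tested. Those without one, among them Hsp90aa1, Hspa8 and Hspa9, were not searched. The ER stress response element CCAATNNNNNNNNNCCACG was in 0.119% of all 32851 promoters and in those of Hspa5, Hsp90b1 and Dnajc3. The heat shock element of 3 units, GAANNTTCNNGAA, was in 0.603% of all promoters and in those of Hspd1, Hspe1, Hsph1 and Dnajb6. The element of 2 units, TTCNNGAA, which every match of the longer one contains, was in 8.52% of all promoters and in 6 of these genes, the same 4 and Dnajb4 and Dnajc10. Hspa1a, Hspa1b, Hspb1 and Dnajb1 were searched and had no match of either heat shock element in this window. A second form of the ER element, ATTGGNCCACG, was in 0.0365% of promoters and in that of Dnajb11, after its start. The stretches shown carry the elements of 3 ER genes whose signal rose after injury and of 4 genes with heat shock elements whose time courses parted, and the capitals mark the elements. A match is a description of these letters and not a sign that a factor bound there. The Hspa5 stretch is chr2:34772005-34772063 (+), the Hsp90b1 stretch is chr10:86705513-86705676 (-) with 2 elements, and the Dnajc3 stretch is chr14:118937807-118937865 (+).
Hspa5: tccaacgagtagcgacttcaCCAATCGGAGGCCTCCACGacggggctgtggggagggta
Hsp90b1: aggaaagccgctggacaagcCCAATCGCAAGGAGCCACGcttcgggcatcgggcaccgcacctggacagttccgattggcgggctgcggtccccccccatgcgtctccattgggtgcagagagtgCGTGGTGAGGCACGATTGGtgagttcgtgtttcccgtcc
Dnajc3: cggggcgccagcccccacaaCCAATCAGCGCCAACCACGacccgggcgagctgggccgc

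Hspd1 and Hspe1 lie head to head and share 1 stretch, chr1:55088056-55088079 (+), 92 to 69 bases before the Hspe1 start, in which 2 matches of the 3-unit element overlap. The listed Hspd1 starts lie 216 and 95 bases from the Hspe1 start, on opposite sides of it. The stretch lies before the first of these Hspd1 starts and after the second. The Dnajb6 stretch is chr5:29735832-29735884 (+), with a 3-unit element. The Hsph1 stretch is chr5:149636342-149636389 (-), with a 2-unit element before the start, while its 3-unit match lies after the start.
Hspd1 and Hspe1: ccgTTCTAGAACCTTCCGGAAggc
Dnajb6: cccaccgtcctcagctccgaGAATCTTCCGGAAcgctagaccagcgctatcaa
Hsph1: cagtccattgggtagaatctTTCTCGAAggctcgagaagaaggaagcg

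Some libraries stand apart. Ntrk2, which encodes trkB, has 2 probe sets that separate the genotypes, with WT arrays at 8.65 to 10.86 and KO arrays at 4.94 or less, apart from the library labelled KO sham replicate 2 at 9.46 and 8.59. WT day 3 replicate 2 was the extreme array of its group for several members, and KO day 3 replicate 3 carried a mean of 12.11 over 18 skeletal muscle genes, against 3.78 to 9.88 on the other 33 arrays. In sham cord the 17 neuron, 11 astrocyte and 11 oligodendrocyte genes averaged 11.85, 12.17 and 13.21 in WT, so the labelled tissue showed its cell types. The neuron genes averaged 11.85 ± 0.03 (SD, n = 4) in WT sham and 10.85 ± 0.21 (n = 4) at day 3, and 11.85 ± 0.05 (n = 4) in KO sham and 10.67 ± 0.54 (n = 5) at day 3. The 16 macrophage and microglia genes rose from 7.15 ± 0.09 (n = 4) in WT sham to 11.39 ± 0.16 (n = 4) at day 7. The 6 caudal Hox genes, which mark the position along the cord, averaged 6.92 ± 0.36 in WT sham and 8.82 ± 0.16 in KO sham (n = 4 each). At days 1, 3 and 7 they averaged 8.27, 7.72 and 7.92 in WT, above WT sham. In KO they averaged 8.53, 7.65 and 8.33, below KO sham. Injured and sham groups thus also differed in these genes, in opposite directions in WT and KO. In bulk tissue, fewer cells of a type and less RNA per cell cannot be told apart.

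After injury some of the 60 genes rose and others fell. More rose than fell at day 1 in both genotypes, and more fell than rose at days 3 and 7. Values are log2 signals, a difference is that of group means from sham of the same genotype with its standard error (SE), and a gene rose or fell where the limma test gave an adjusted p under 0.05 over all tested genes. In WT, 20 rose and 16 fell at day 1, where 27.1% of all tested genes rose and 32.5% fell. At day 3, 13 rose (22 with the caudal Hox mean in the fit) and 25 fell, against 29.5% and 37.4% of all genes, and at day 7, 11 rose and 29 fell, against 25.8% and 33.3%. In KO, 17 rose and 10 fell at day 1 (23.7% and 27.3% of all genes), 18 rose and 25 fell at day 3 (30.9% and 38.8%), and 11 rose and 23 fell at day 7 (23.5% and 31%). As shares of the 60, those that rose in WT were 33.3%, 21.7% and 18.3% at days 1, 3 and 7 and those that fell 26.7%, 41.7% and 48.3%. In KO they were 28.3%, 30% and 18.3%, and 16.7%, 41.7% and 38.3%. Beside the background, the share that rose was higher at day 1 and lower at day 7 in both genotypes, and the share that fell was lower at day 1 and higher at day 7. At day 3 the KO shares were near those of all genes. With the caudal Hox mean in the fit, 9 calls were lost and 0 gained in KO at day 3. In WT at day 3, 0 were lost and 9 gained. These are descriptions, and the difference from the background was not tested. The calls lost with this covariate were Dnajc4, Dnajc11 and Hsph1 in WT at day 1 and Dnajc8 and Hspa1a in WT at day 7. In KO they were Dnajb14, Dnajc13 and Hsp90aa1 at day 1 and Dnaja1, Dnaja2, Dnajc30, Hspa8, Hspa13 and Hspb8 at day 7. At day 3 in KO they were Dnajb4, Dnajb12, Dnajc2, Dnajc30, Hspa1b, Hspa8, Hspa12b, Hspb11 and Hspe1. The rises at days 1 and 3 include Hspa12b, which exceeded log2 4 on 5 injured arrays alone. The same shares of all genes are the background for the counts by role and by pathway list below. The 10 that fell in KO at day 1 were 6 without KO day 1 replicate 1. Without the library labelled KO sham replicate 2, 16 rose and 7 fell in KO on day 1, 15 and 23 on day 3, and 10 and 21 on day 7. The median difference of the 60 moved from -0.01 at day 1 to -0.06 at day 3 and -0.19 at day 7 in WT, and from 0.00 to -0.01 and -0.15 in KO, while the median of all tested genes was -0.05 at day 1 and -0.06 at days 3 and 7 in both genotypes.

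Of the 60, 24 only ever rose over the 6 injury comparisons, 31 only fell, 3 did both (Hspd1, Dnajc11 and Hspb11) and 2 passed in none (Hspb7 and Hspbap1). Hspa12b, among the 24, exceeded log2 4 on 5 injured arrays alone. The 8 that rose in all 6 were the small heat shock proteins Hspb1, Hspb6 and Hspb8, the ER proteins Hspa5, Dnajb11, Dnajc1 and Dnajc3, and Dnajc13 of endosomes. With the caudal Hox mean in the fit, the calls of Hspb8 in KO at day 7 (0.42, adjusted p 0.0519) and of Dnajc13 in KO at day 1 (0.17, adjusted p 0.0643) were lost. The 7 that fell in all 6 were Hsp90aa1, Hspa4l, Dnaja4, Dnajb2, Dnajc6, Dnajc12 and Dnajc18. With the same covariate the KO day 1 call of Hsp90aa1 was lost (-0.14, adjusted p 0.0535). The injured groups of a genotype share its 4 sham arrays, so these counts do not come from separate controls. The same patterns were not counted over all tested genes, so these counts do not set the members apart from other genes.

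**Figure D1:**
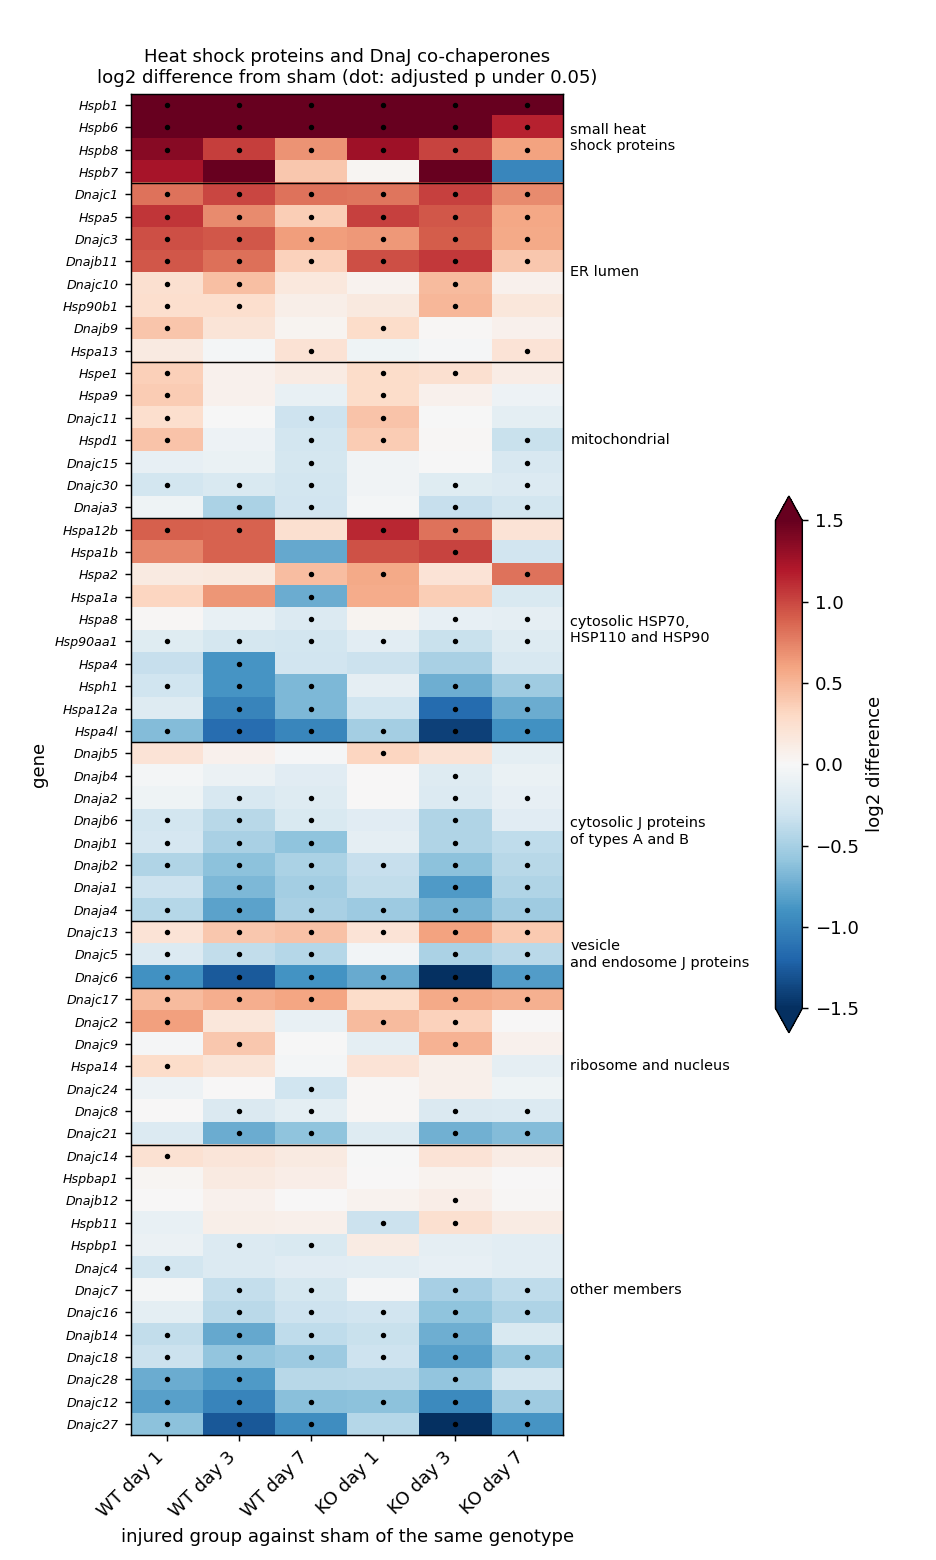
Log2 difference from sham of the same genotype for each of the 60 tested genes (rows, ordered by role) in the 6 injured groups (columns), with the colour scale capped at 1.5 in either direction and a dot where the adjusted p was under 0.05. The small heat shock protein and ER rows are mostly red with dots in every column for 7 genes, and most rows of the cytosolic J proteins are blue with dots from day 3.

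Small heat shock proteins gave the largest change. Hspb1 (HSP27), which holds unfolded proteins and binds actin filaments, was 28.1-fold higher in WT at day 1 and still 7.3-fold higher at day 7, on every injured array above every sham array. Hspb6 and Hspb8 rose at each day in both genotypes, except that the Hspb8 call in KO at day 7 was lost with the caudal Hox mean in the fit. Hspb7, a small heat shock protein of striated muscle, passed in none of the injury comparisons.

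Hspb1 read 8.41, 8.67, 8.69 and 9.27 on the WT sham arrays and 13.35, 13.43, 13.62, 13.69 and 13.78 at day 1. It read 12.37, 12.49, 13.03 and 13.85 in WT at day 3 and 11.59, 11.60, 11.63 and 11.71 at day 7. The KO arrays were at 8.78, 8.82, 8.84 and 9.05 in sham, 13.65, 13.77, 13.77 and 13.87 on day 1, 12.06, 12.24, 12.67, 13.13 and 13.23 on day 3, and 11.23, 11.28, 11.39 and 11.48 on day 7. The group mean was highest at day 1 and lowest among injured groups at day 7, and no day 7 array overlapped those of day 3. The differences from sham were 4.81 ± 0.22 (SE), 4.17 ± 0.23 and 2.87 ± 0.23 at days 1, 3 and 7 in WT, and 4.89 ± 0.23, 3.79 ± 0.22 and 2.47 ± 0.23 in KO. The adjusted p in limma was 2.29e-16 in WT at day 1 and 7.75e-10 in KO at day 7, the highest of the 6. A second probe set of Hspb1 gave 5.27 ± 0.26, 4.46 ± 0.27 and 3.04 ± 0.27 in WT. Between days, Hspb1 fell by 0.87 from day 1 to day 3 and by 1.31 from day 3 to day 7 as the mean of both genotypes.

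Hspb6 (HSP20), best known in smooth and heart muscle, read 5.40, 5.75, 6.03 and 6.05 in WT sham and 5.46, 6.22, 6.38 and 7.32 in KO sham. It read 7.75, 7.99, 8.09, 8.13 and 8.19 in WT on day 1, 7.85, 8.14, 8.27 and 8.69 on day 3, and 7.60, 7.66, 7.93 and 8.13 on day 7. KO arrays were at 7.78, 7.86, 7.93 and 8.17 on day 1, 8.12, 8.15, 8.22, 8.40 and 10.77 on day 3, and 7.43, 7.50, 7.53 and 7.54 on day 7. Injured and sham arrays did not overlap in either genotype, and 1 KO day 3 array stood far above the rest. The differences were 2.22 ± 0.36, 2.43 ± 0.38 and 2.03 ± 0.38 in WT and 1.59 ± 0.38, 2.39 ± 0.36 and 1.16 ± 0.38 in KO. Without KO day 3 replicate 3 the KO day 3 difference was 1.88 ± 0.23. Over the 34 fits that each left out 1 array the KO day 7 value ran from 0.86 to 1.48, and the call was lost in 1 of them, without KO sham replicate 1 (0.86).

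Hspb8 (HSP22), which works with the exchange factor BAG3 in removing misfolded proteins, read 8.47, 8.60, 8.65 and 8.83 in WT sham, 9.73, 9.87, 10.02, 10.15 and 10.29 on day 1, 9.28, 9.59, 9.60 and 10.23 on day 3, and 9.09, 9.31, 9.39 and 9.43 on day 7. Its differences were 1.37 ± 0.19, 1.04 ± 0.20 and 0.67 ± 0.20 in WT, and 1.27 ± 0.20, 1.01 ± 0.19 and 0.60 ± 0.20 in KO. The groups kept apart from sham on every array, and the order of the days was that of Hspb1. Bag3 rose at each day in WT (0.93, 0.65 and 0.45) and at days 1 and 3 in KO (0.63 and 0.62). Cryab, the lens small heat shock protein that oligodendrocytes and astrocytes also make, rose at day 3 (0.38 in WT and 0.40 in KO) and passed on no other day.

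Skeletal muscle genes moved across these arrays as well. The mean over the 18 ran from 3.89 to 8.18 on WT sham arrays and from 7.0 to 9.63 on KO sham arrays, from 3.78 to 7.41 in WT and 3.93 to 6.12 in KO at day 1, and from 4.62 to 12.11 in KO at day 3. At day 1, 1 of the 18 rose and 1 fell in WT, and 1 rose and 15 fell in KO. Within KO sham, Hspb6 read 5.46, 6.22, 6.38 and 7.32 on the arrays with muscle means of 7.0, 8.21, 8.49 and 9.63. Within WT sham it read 5.75 and 5.40 at muscle means of 3.89 and 4.08, and 6.03 and 6.05 at 7.6 and 8.18. Sham arrays with more muscle signal were thus the higher ones for Hspb6. On the WT day 1 array with the lowest muscle mean, 3.78, Hspb6 read 8.09. Hspb7 read 11.35 and Hspb6 and Hspb8 read 10.77 and 10.65 on KO day 3 replicate 3, the array with the highest muscle mean. The members just outside the signal limit of log2 4 on 4 arrays were above it there too, Hspb3 at 6.61 and Hspa1l at 4.84 on that array alone, and Hspb2 at 6.55 there and 4.07 on WT day 3 replicate 3. Just inside the limit were Hspa12b, above 4 on 5 arrays, Hspbap1 on 8 and Hspb7 on 9. Of 10 vascular smooth muscle and endothelial genes, 9 rose in WT and 3 in KO at day 1 and 10 and 8 at day 3, and the part of these genes and of the muscle genes in the Hspb6 result was not tested.

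**Figure D2:**
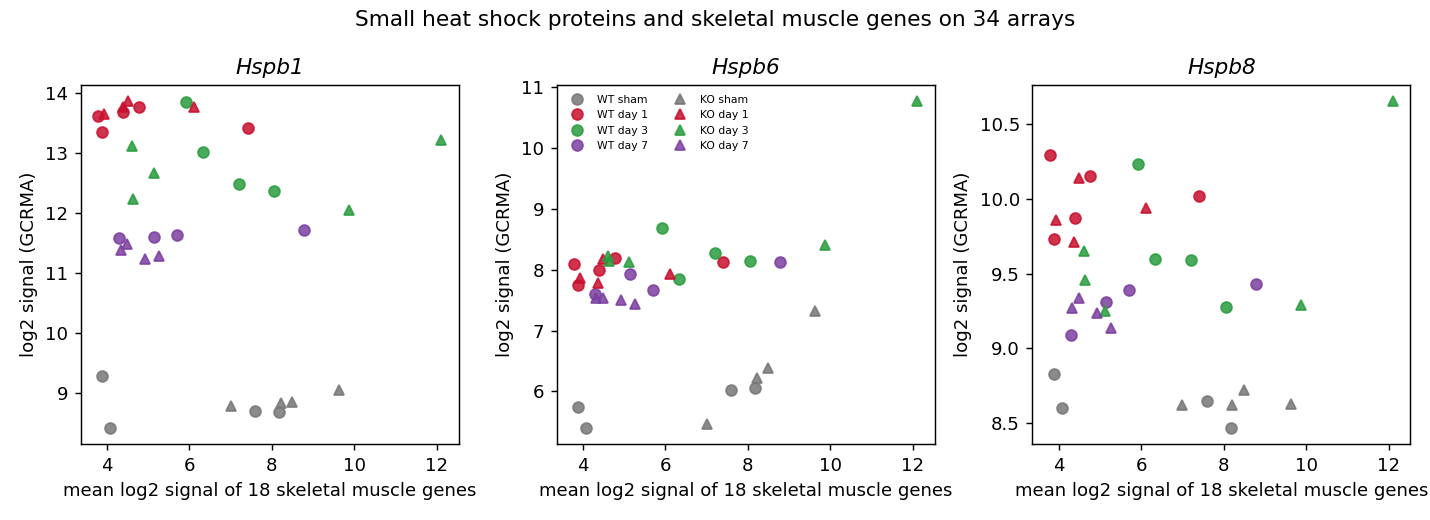
Log2 signal of Hspb1, Hspb6 and Hspb8 (vertical) against the mean log2 signal of 18 skeletal muscle genes (horizontal) on each of the 34 arrays, with circles for WT, triangles for KO and colours for sham and days 1, 3 and 7. Injured arrays lie above sham arrays of their genotype at low and at high muscle signal, and the array at a muscle mean of 12.11 has the highest Hspb6 and Hspb8.

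Most chaperones that work in the ER lumen rose. Among the 8 tested, which include Dnajc1 with its J domain in the lumen, 7 rose and none fell in WT at day 1, 6 rose at day 3 and 5 at day 7, and 5, 6 and 5 rose in KO. ER members placed outside this group are described with the remaining members. Among them, Dnajb14 and Dnajc16 fell in 5 of the 6 comparisons each. The group's median difference was 0.62, 0.58 and 0.29 in WT and 0.46, 0.71 and 0.31 in KO. Hspa5 (BiP), the HSP70 of the ER and the sensor partner of the unfolded protein response, was 2.1-fold higher at day 1.

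Hspa5 read 12.71, 12.71, 12.88 and 12.89 in WT sham, 13.62, 13.82, 13.85, 13.96 and 14.08 on day 1, 13.17, 13.54, 13.65 and 13.68 on day 3, and 13.02, 13.21, 13.21 and 13.23 on day 7. In KO it read 12.67, 12.71, 12.73 and 12.75 in sham, 13.59, 13.65, 13.71 and 14.01 on day 1, 13.52, 13.52, 13.61, 13.78 and 13.82 on day 3, and 13.10, 13.32, 13.36 and 13.39 on day 7. Every injured array lay above every sham array. The differences were 1.07 ± 0.10, 0.71 ± 0.11 and 0.37 ± 0.11 in WT (adjusted p 7.67e-10, 1.81e-06 and 0.00397 in limma) and 1.03 ± 0.11, 0.93 ± 0.10 and 0.58 ± 0.11 in KO.

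Its J protein partners rose as well. Dnajb11 (ERdj3), which binds clients in the lumen, rose by 0.93 ± 0.11, 0.83 ± 0.11 and 0.35 ± 0.11 in WT and by 0.97 ± 0.11, 1.06 ± 0.11 and 0.41 ± 0.11 in KO. Dnajc3 (P58IPK), which also restrains the kinase PERK, read 10.09, 10.14, 10.15 and 10.36 in WT sham, 10.93, 11.04, 11.06, 11.23 and 11.49 on day 1, 10.96, 11.02, 11.06 and 11.41 on day 3, and 10.74, 10.76, 10.86 and 10.89 on day 7. No injured WT array overlapped sham, and the differences were 0.97 ± 0.11, 0.93 ± 0.12 and 0.63 ± 0.12. In KO they were 0.65 ± 0.12, 0.91 ± 0.11 and 0.57 ± 0.12. Dnajc1 (ERdj1), an ER membrane protein that can bind ribosomes, rose by 0.81 ± 0.10, 1.00 ± 0.11 and 0.81 ± 0.11 in WT and by 0.80 ± 0.11, 1.02 ± 0.10 and 0.71 ± 0.11 in KO.

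The rest of the group moved less. Hsp90b1 (GRP94), the HSP90 of the ER, carries 2 of the elements shown, and read 12.91, 12.97, 13.05 and 13.10 in WT sham and 12.96, 13.24, 13.30, 13.31 and 13.49 at day 1. It overlapped sham there, and its differences in WT were 0.25 ± 0.10, 0.25 ± 0.10 and 0.09 ± 0.10. The WT day 1 and day 3 calls were each lost in 5 of the 34 fits without 1 array (without WT day 1 replicates 1, 2 or 4, WT day 3 replicates 1, 3 or 4, or WT sham replicates 3 or 4), with values from 0.19 to 0.32 and from 0.19 to 0.38. In KO its differences were 0.15 ± 0.10, 0.50 ± 0.10 and 0.17 ± 0.10, with all 5 day 3 arrays (13.26, 13.46, 13.54, 13.54 and 13.58) above the sham arrays (12.91, 12.92, 12.98 and 13.08). Dnajb9 (ERdj4), which hands misfolded proteins to degradation, rose at day 1 only, by 0.42 ± 0.08 in WT and 0.27 ± 0.09 in KO. The KO call was lost without KO day 1 replicate 1 (0.18). Dnajc10 (ERdj5), a disulfide reductase, rose in WT at days 1 and 3 (0.24 and 0.45) and in KO at day 3 (0.47). Hspa13, a small HSP70 of microsomes, rose at day 7 alone, by 0.22 in WT and 0.21 in KO. With the caudal Hox mean in the fit its KO call was lost (0.19, adjusted p 0.0879 in limma).

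Most other genes of the unfolded protein response rose. Of 28 tested that are no members, 21 rose and 2 fell in WT on day 1, 17 and 4 on day 3, and 16 and 2 on day 7, and in KO 21 and 1, 15 and 3, and 15 and 0. In WT the ER factors Sdf2l1 (1.71, 1.27 and 0.93) and Manf (1.53, 1.16 and 0.35) rose at each day. Creld2 (1.72, 0.99 and 0.29) did so at days 1 and 3, the last value not past the test. Derl2 rose at each day in WT (0.86, 1.32 and 0.82), and P4hb gave 1.21 and 0.93 at days 3 and 7. The transcription factors Xbp1 (0.84, 0.66 and 0.30) and Ddit3 (0.95, 0.99 and 0.61) rose on each day in WT, and Atf4 rose at days 1 and 3 (1.01 and 0.52). Hyou1, the large HSP110-like exchange factor of Hspa5, rose at day 1 (0.61 in WT and 0.65 in KO) and fell in WT at day 7 (-0.26). Herpud1, which helps degradation at the ER, fell at each day in WT (-0.22, -0.34 and -0.43). Serpinh1 (HSP47), the collagen chaperone of the ER, rose by 1.94, 1.82 and 1.95 in WT and by 1.18, 1.99 and 1.31 in KO.

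**Figure D3:**
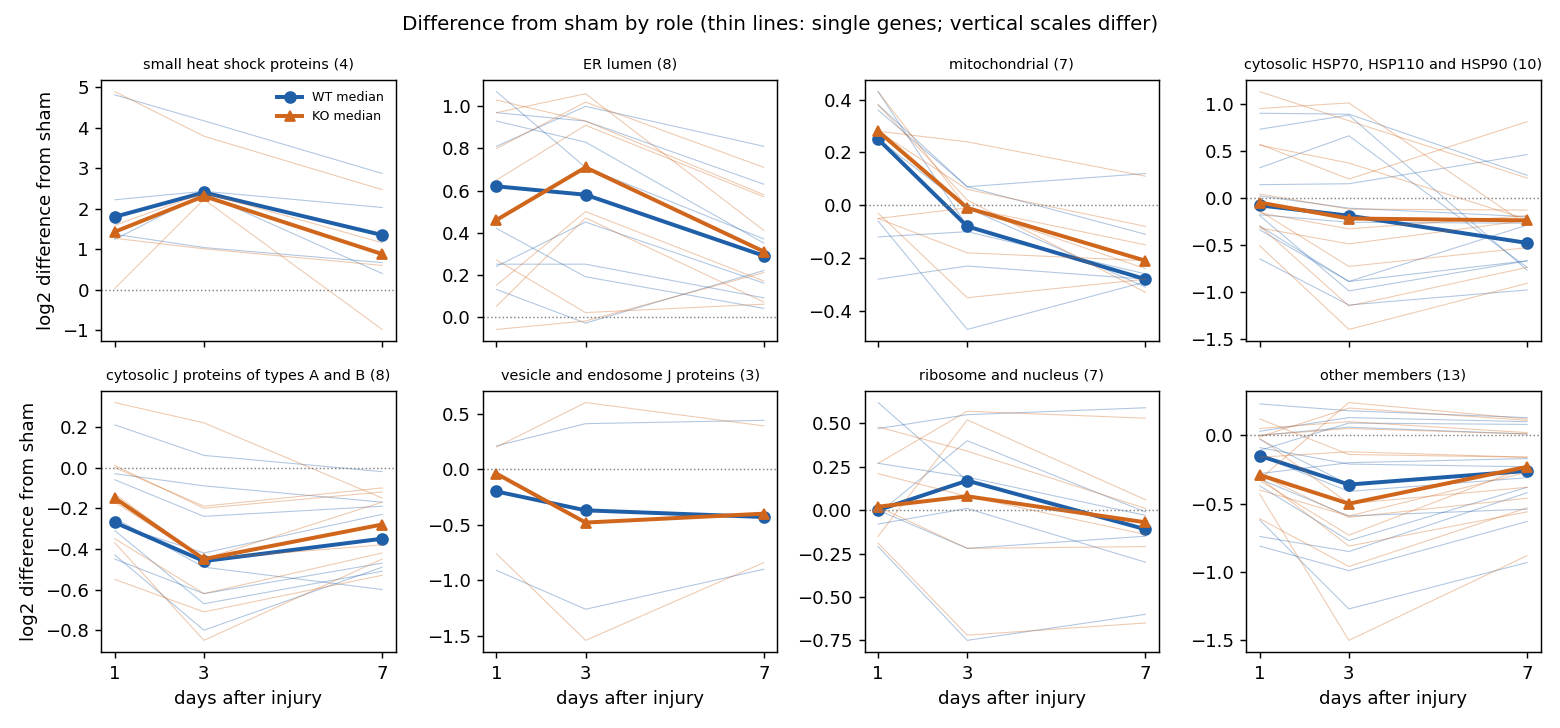
Log2 difference from sham (vertical, scales differ between panels) at 1, 3 and 7 days after injury (horizontal) in WT (blue) and KO (orange), for 8 groups of genes by role, with the number of genes in brackets, thin lines for single genes and thick lines for the group median. The ER median stays above 0 at each day, the mitochondrial median falls from 0.25 in WT and 0.28 in KO at day 1 to -0.28 and -0.21 at day 7, and the median of the cytosolic J proteins is below 0 throughout.

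Of 7 mitochondrial chaperones, 4 rose and 1 fell in WT at day 1, none rose and 2 fell at day 3, and none rose and 5 fell at day 7, and in KO the counts were 4 and 0, 1 and 2, and 0 and 4. Hspd1 (HSP60) and Hspe1 (HSP10), which form a chamber together and share the promoter stretch above, both rose at day 1 and then parted.

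Hspd1 read 11.93, 11.95, 11.98 and 11.98 in WT sham, 12.21, 12.35, 12.45, 12.47 and 12.49 on day 1, 11.58, 11.94, 11.98 and 12.01 on day 3, and 11.65, 11.68, 11.69 and 11.71 on day 7. In KO it read 11.89, 11.93, 11.93 and 11.96 in sham, 12.17, 12.32, 12.34 and 12.39 on day 1, 11.84, 11.90, 11.92, 12.01 and 12.06 on day 3, and 11.55, 11.59, 11.60 and 11.66 on day 7. All day 1 arrays lay above sham and all day 7 arrays below it, while those of day 3 overlapped it. The differences were 0.43 ± 0.07, -0.08 ± 0.07 and -0.28 ± 0.07 in WT and 0.38 ± 0.07, 0.02 ± 0.07 and -0.33 ± 0.07 in KO. The array at 11.58 was WT day 3 replicate 2.

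Hspe1 read 11.55, 11.56, 11.63 and 11.67 in WT sham, 11.67, 11.90, 12.06, 12.07 and 12.09 on day 1, 11.50, 11.72, 11.72 and 11.75 on day 3, and 11.63, 11.68, 11.76 and 11.80 on day 7. Its differences were 0.36 ± 0.07, 0.07 ± 0.08 and 0.12 ± 0.08 in WT and 0.28 ± 0.08, 0.24 ± 0.07 and 0.11 ± 0.08 in KO. With the caudal Hox mean in the fit the KO day 3 call was lost (0.10, adjusted p 0.318 in limma). The WT values at days 3 and 7 passed instead (0.17 and 0.24). Hspe1 was thus not below sham at day 7 in either genotype, where Hspd1 fell in both. The difference between the genes was not tested.

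Hspa9 (mortalin), the mitochondrial HSP70, rose at day 1 (0.38 ± 0.06 in WT and 0.28 in KO) and passed on no later day. Dnajc11, of the inner membrane contact sites, rose at day 1 (0.25 in WT and 0.43 in KO) and fell in WT at day 7 (-0.31). Dnaja3 (Tid1), the main J partner of Hspa9, fell at days 3 and 7 (-0.47 and -0.29 in WT, -0.35 and -0.28 in KO), and Dnajc15 fell at day 7 (-0.26 and -0.24). Dnajc30 fell at each day in WT (-0.28, -0.23 and -0.28) and at days 3 and 7 in KO (-0.18 and -0.21). The Dnajc30 calls lay near the threshold, and the KO day 3 call was lost in 15 of the 34 fits without 1 array. Among 12 mitochondrial chaperones and proteases that are no members, 2 rose and 3 fell in WT at day 1, against 27.1% and 32.5% of all tested genes. Grpel1, the exchange factor of Hspa9, rose by 0.34 in WT and 0.37 in KO at day 1.

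Of 14 genes of the cytosolic chaperonin (CCT) and its partner prefoldin, which are not members, 8 rose and 3 fell in WT at day 1, 5 and 5 at day 3, and none rose and 7 fell at day 7, and in KO the counts were 9 and 2, 3 and 5, and 0 and 7. Cct3 (0.52 at day 1, 0.26 at day 3 and -0.16 at day 7) and Cct6a (0.49, 0.13 and -0.11) passed at days 1 and 3 in WT, and Cct5 rose at day 1 (0.36) and fell at day 7 (-0.13). Pfdn2, a prefoldin subunit, fell at each day in WT (-0.27, -0.80 and -0.76).

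**Figure D4:**
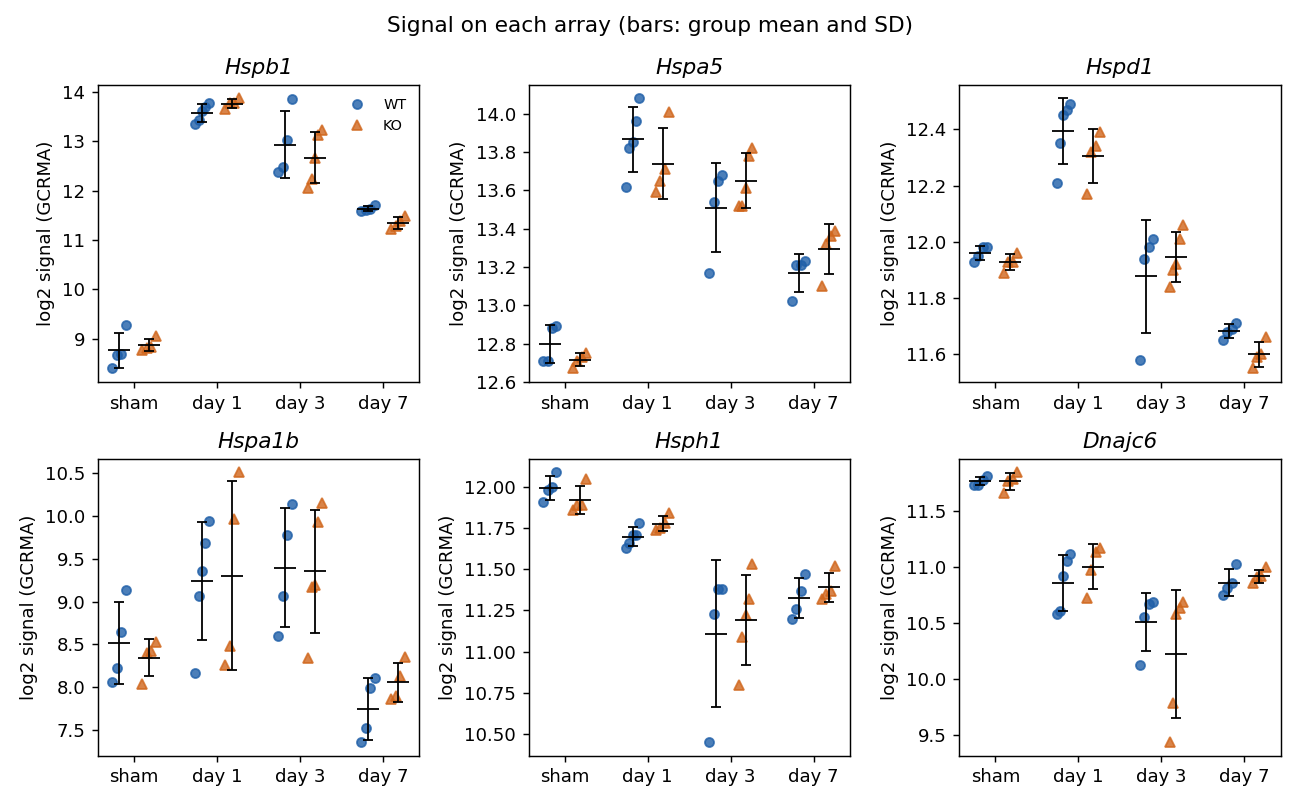
Log2 signal (vertical, scales differ between panels) of Hspb1, Hspa5, Hspd1, Hspa1b, Hsph1 and Dnajc6 on each array of sham and days 1, 3 and 7 (horizontal), with blue circles for WT, orange triangles for KO and bars for the group mean and SD. Hspb1 and Hspa5 injured arrays lie above sham, Hspd1 is above sham at day 1 and below at day 7, Hspa1b spreads widely at days 1 and 3, and Hsph1 at days 3 and 7 and Dnajc6 on each day lie below sham.

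Of 10 cytosolic HSP70, HSP110 and HSP90 genes, 1 rose and 3 fell in WT on day 1, 1 and 5 on day 3, and 1 and 6 on day 7, and in KO 2 and 2, 2 and 5, and 1 and 5. The gene counted as risen in WT on days 1 and 3 was Hspa12b, which is also counted in KO on those days. It exceeded log2 4 on 5 injured arrays, none of them of WT day 3, and on no sham array. The WT day 3 count of falls includes Hspa4, for which another probe set rose. Hspa1a and Hspa1b, the heat-inducible HSP70s, are near-identical copies, so their probes may read both and their values are uncertain.

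Hspa1b read 8.06, 8.23, 8.64 and 9.13 in WT sham, 8.17, 9.06, 9.36, 9.68 and 9.94 on day 1, 8.60, 9.06, 9.78 and 10.14 on day 3, and 7.36, 7.53, 7.99 and 8.11 on day 7. The KO arrays were at 8.04, 8.40, 8.42 and 8.53 in sham, 8.26, 8.48, 9.96 and 10.51 on day 1, 8.34, 9.17, 9.19, 9.93 and 10.15 on day 3, and 7.86, 7.90, 8.13 and 8.35 on day 7. At days 1 and 3 some arrays of each genotype stood above every sham array and others lay within the sham range. The differences were 0.73 ± 0.41, 0.88 ± 0.43 and -0.77 ± 0.43 in WT (adjusted p 0.126, 0.0707 and 0.126 in limma) and 0.95 ± 0.43, 1.01 ± 0.41 and -0.29 ± 0.43 in KO, of which only KO at day 3 passed (adjusted p 0.0293). That call was lost without KO day 3 replicate 3 (0.81, adjusted p 0.0911) and without the library labelled KO sham replicate 2 (0.91, adjusted p 0.077), and also without KO day 3 replicate 4. With the caudal Hox mean in the fit, Hspa1b rose by 1.80 and 1.51 in WT at days 1 and 3, and the KO day 3 value was 0.07 (adjusted p 0.906). From day 3 to day 7 Hspa1b fell by 1.47 (adjusted p 2.21e-04) as the mean of both genotypes.

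Hspa1a read 5.76, 5.94, 5.96 and 6.05 in WT sham, 5.72, 5.94, 6.32, 6.56 and 6.70 on day 1, 5.82, 5.96, 6.85 and 7.72 on day 3, and 4.96, 4.97, 5.40 and 5.43 on day 7. All WT day 7 arrays lay below sham, a difference of -0.74 ± 0.31 (adjusted p 0.0452 in limma). It was lost in 6 of the 34 fits without 1 array, each without a WT day 7 or a WT sham array, with values from -0.82 to -0.66. With the caudal Hox mean in the fit it was lost (-0.35, adjusted p 0.397), and the WT values on days 1 and 3 passed instead (0.85, adjusted p 0.0471, and 0.97, adjusted p 0.0104). In KO no day passed (0.56 ± 0.31, 0.37 ± 0.30 and -0.23 ± 0.31). From day 3 to day 7 Hspa1a fell by 1.00 ± 0.22.

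Hspa8 and Hsp90aa1 moved by small amounts. Hspa8 (HSC70), the housekeeping HSP70, read 14.75, 14.83, 14.92 and 14.93 in WT sham and 14.82, 14.83, 14.88, 14.88 and 14.98 at day 1, with full overlap, and 14.59, 14.62, 14.69 and 14.73 at day 7, with none. Its differences were 0.02 ± 0.05, -0.11 ± 0.05 and -0.20 ± 0.05 in WT and 0.04 ± 0.05, -0.12 ± 0.05 and -0.13 ± 0.05 in KO. The KO calls at days 3 and 7 were lost in 2 and 7 of the 34 fits without 1 array, both of them without the library labelled KO sham replicate 2, with values from -0.14 to -0.09 and from -0.16 to -0.11. Hsp90aa1, the inducible cytosolic HSP90, fell on each day, by 0.18 ± 0.06, 0.26 ± 0.06 and 0.27 ± 0.06 in WT and by 0.16 ± 0.06, 0.33 ± 0.06 and 0.19 ± 0.06 in KO. Its day 1 calls were lost without WT sham replicate 2 in WT (-0.13) and without KO day 1 replicates 1 or 2 or KO sham replicates 1, 3 or 4 in KO (-0.18 to -0.13). Hspa2, an HSP70 known best from the testis, rose at day 7 in both genotypes (0.46 ± 0.11 in WT and 0.81 ± 0.11 in KO) and at day 1 in KO (0.57 ± 0.11).

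Hsph1, Hspa4l and Hspa12a fell by larger amounts. Hsph1 (HSP105), which carries heat shock elements, read 11.91, 11.98, 12 and 12.09 in WT sham, 11.63, 11.66, 11.71, 11.71 and 11.78 on day 1, 10.45, 11.23, 11.38 and 11.38 on day 3, and 11.20, 11.26, 11.37 and 11.47 on day 7. Every injured WT array lay below sham, and the differences were -0.30 ± 0.13, -0.89 ± 0.14 and -0.67 ± 0.14 (adjusted p 0.048, 2.64e-06 and 1.41e-04 in limma). The day 1 call was lost in 26 of the 34 fits without 1 array, with values from -0.33 to -0.27. In KO the differences were -0.14 ± 0.14, -0.73 ± 0.13 and -0.53 ± 0.14. Hspa4l (APG1), an HSP110 relative, fell by 0.65 ± 0.17, 1.14 ± 0.18 and 0.98 ± 0.18 in WT and by 0.51 ± 0.18, 1.40 ± 0.17 and 0.91 ± 0.18 in KO. Its KO day 1 call was lost without KO day 1 replicate 1 and without the library labelled KO sham replicate 2, with values from -0.58 to -0.42 over all fits. Hspa12a, a distant HSP70 relative, fell at day 3 (0.99 ± 0.18 lower in WT and 1.15 ± 0.17 in KO) and day 7 (by 0.67 and 0.74). The neuron genes fell with them, 12, 17 and 17 of 17 in WT at days 1, 3 and 7 and 6, 17 and 15 in KO, and their part in these falls was not tested.

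Probe sets disagreed for Hspa4 (APG2), the other HSP110 relative. The probe set used fell in WT at day 3 (-0.89 ± 0.26), where WT day 3 replicate 2 read 9.13 and the others 11.26, 11.28 and 11.31. Another probe set of Hspa4 rose by 0.89, 0.87 and 0.45 in WT and by 0.77, 0.72 and 0.32 in KO, so no direction is given for the gene. It was the only opposite call among the other probe sets of called members, of which 29 of 46 passed in the same direction in WT at day 1 and 47 of 58 in KO at day 3. Hspa12b, a distant HSP70 relative of endothelium, passed at days 1 and 3 (0.90 and 0.89 in WT, 1.13 and 0.82 in KO). It is a member only through 5 injured arrays above the limit, and with values under log2 4 set to 4 the differences were 0.11, 0.00, 0.10 and 0.02, at least 1.08-fold and 1.07-fold at day 1.

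J proteins of the cytosol fell from day 1 on in WT and from day 3 in greater number in KO. Of 8 of types A and B, none rose and 4, 6 and 6 fell in WT at days 1, 3 and 7, whereas in KO 1 rose and 2 fell at day 1, 7 fell at day 3 and 5 at day 7. The group's median difference was -0.27, -0.46 and -0.35 in WT and -0.15, -0.45 and -0.28 in KO. Dnajb1 (HSP40), the classical heat-inducible J protein and partner of Hspa1a and Hspa8, read 10.07, 10.13, 10.14 and 10.27 in WT sham, 9.81, 9.81, 9.92, 9.97 and 9.98 on day 1, 9.56, 9.67, 9.68 and 9.73 on day 3, and 9.37, 9.45, 9.64 and 9.73 on day 7. No injured WT array reached the sham range. Its differences were -0.25 ± 0.07, -0.49 ± 0.07 and -0.60 ± 0.07 in WT and -0.13 ± 0.07, -0.45 ± 0.07 and -0.38 ± 0.07 in KO.

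Dnaja1, the main farnesylated J protein of the cytosol, fell at days 3 and 7 (by 0.67 ± 0.17 and 0.51 ± 0.17 in WT, 0.85 ± 0.16 and 0.45 ± 0.17 in KO). The WT day 7 call was lost without WT day 7 replicate 4 (-0.40), and the KO one without KO day 7 replicates 1 or 3 or KO sham replicate 3 (-0.48 to -0.38). Dnaja4 fell by 0.43 to 0.80 over the days in WT and by 0.53 to 0.71 in KO, and its WT day 1 call was lost without WT day 1 replicate 4 (-0.38). Dnajb2 (HSJ1), which is enriched in neurons, fell by 0.45 ± 0.10, 0.62 ± 0.10 and 0.47 ± 0.10 in WT and by 0.35 ± 0.10, 0.62 ± 0.10 and 0.42 ± 0.10 in KO. Dnajb6, which blocks aggregation of polyglutamine proteins and carries a 3-unit element, fell at each day in WT (-0.28, -0.42 and -0.23) and at day 3 in KO (-0.45). Dnaja2 fell at days 3 and 7 (-0.24 and -0.19 in WT, -0.20 and -0.12 in KO), and Dnajb4 fell in KO at day 3 (-0.19). Dnajb5 rose in KO at day 1 (0.32) and passed nowhere else.

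Genes that work beside HSP90 and HSP70 without a J domain fell more often than they rose. Of 21 tested, 2 rose and 8 fell in WT at day 1, 2 and 15 at day 3, and none rose and 15 fell at day 7, and in KO 4 and 6, 3 and 12, and 1 and 13. Of all tested genes, 27.1%, 29.5% and 25.8% rose and 32.5%, 37.4% and 33.3% fell in WT. In KO 23.7%, 30.9% and 23.5% rose and 27.3%, 38.8% and 31% fell, so the falls at day 1 lay near these shares. Stip1 (HOP), which links HSP70 to HSP90, gave -0.30, -0.72 and -0.76 in WT, Ahsa1 (AHA1), which drives the HSP90 ATPase, gave -0.23, -0.53 and -0.53, and Fkbp4 gave -0.29, -0.78 and -0.74. Fkbp5, a co-chaperone that glucocorticoids induce, rose instead in WT at days 1 and 3 (1.42 and 1.44) and on each day in KO (2.04, 1.12 and 1.22). Of 10 exchange factors of HSP70, 3 rose and 2 fell in WT at day 1 and 2 and 4 at day 7, with Bag4 lower on each day (-0.69, -0.97 and -0.82). Of Hsf2 and Hsbp1, a heat shock factor and a protein that binds them, Hsbp1 fell in WT at day 1 (-0.25) and Hsf2 fell in KO at day 1 (-0.46, adjusted p 0.0397), a call lost in 5 of the 34 fits without 1 array. Hsf1 is not among the probe sets with 1 gene symbol.

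Of the 3 J proteins of vesicles and endosomes, Dnajc6 and Dnajc5 fell and Dnajc13 rose at each day in WT. Dnajc6 (auxilin), the neuronal J protein that strips clathrin from synaptic vesicles, read 11.74, 11.74, 11.78 and 11.82 in WT sham, 10.58, 10.61, 10.92, 11.06 and 11.12 on day 1, 10.13, 10.56, 10.67 and 10.69 on day 3, and 10.75, 10.82, 10.86 and 11.03 on day 7. In KO it read 11.66, 11.77, 11.79 and 11.85 in sham, 10.73, 10.98, 11.14 and 11.17 on day 1, 9.44, 9.79, 10.58, 10.64 and 10.69 on day 3, and 10.86, 10.91, 10.92 and 11 on day 7. Every injured array was below every sham array, and the lowest arrays were those of day 3. The differences were -0.91 ± 0.18, -1.26 ± 0.19 and -0.90 ± 0.19 in WT and -0.76 ± 0.19, -1.54 ± 0.18 and -0.84 ± 0.19 in KO, which at day 3 is 2.9-fold lower. Dnajc5 (CSPα), the synaptic vesicle J protein, fell in WT at each day (by 0.20, 0.37 and 0.43) and in KO at days 3 and 7 (by 0.48 and 0.40). Dnajc13 (RME-8), which works on endosomes of most cells, rose on each day instead, by 0.21 ± 0.08, 0.41 ± 0.08 and 0.44 ± 0.08 in WT and by 0.20 ± 0.08, 0.60 ± 0.08 and 0.39 ± 0.08 in KO. Its day 1 calls were lost without WT day 1 replicates 4 or 5 or WT sham replicate 4 in WT (0.17 to 0.24 over all fits) and without KO day 1 replicates 1, 2 or 4 or KO sham replicates 2, 3 or 4 in KO (0.16 to 0.24).

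Members of the nucleus and ribosome had courses of their own. Dnajc9, a J protein that is also a chaperone of newly made histones, read 9.01, 9.06, 9.13 and 9.29 in WT sham, 9.01, 9.07, 9.11, 9.15 and 9.17 on day 1, 9.42, 9.53, 9.53 and 9.60 on day 3, and 9.02, 9.07, 9.15 and 9.23 on day 7. In KO it read 9.07, 9.10, 9.10 and 9.12 in sham, 8.82, 8.91, 8.97 and 9.09 on day 1, 9.43, 9.54, 9.63, 9.68 and 9.80 on day 3, and 9.10, 9.17, 9.17 and 9.18 on day 7. Day 3 stood alone above the other times in both genotypes. Dnajc9 rose at day 3 by 0.40 ± 0.07 in WT and 0.52 ± 0.07 in KO, rose by 0.54 ± 0.05 from day 1 to day 3 and fell by 0.43 ± 0.05 from day 3 to day 7. Dnajc2 (MPP11), the J protein at the ribosome exit, rose at day 1 (0.62 in WT and 0.48 in KO) and in KO at day 3 (0.34). The KO day 3 call was lost with the caudal Hox mean in the fit (0.17, adjusted p 0.211 in limma). Dnajc17, a nuclear splicing protein, rose on each day in WT (0.47, 0.55 and 0.59) and at days 3 and 7 in KO (0.57 and 0.53). Dnajc21, of ribosome assembly, fell at days 3 and 7 by 0.75 ± 0.12 and 0.60 ± 0.12 in WT and by 0.72 ± 0.11 and 0.65 ± 0.12 in KO. Dnajc8, of the spliceosome, fell at the same days (-0.22 and -0.15 in WT, -0.22 and -0.21 in KO), Dnajc24, of diphthamide synthesis, fell in WT at day 7 (-0.30), and Hspa14, an HSP70 that works with Dnajc2, rose in WT at day 1 (0.27).

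Of the 13 remaining members, 6, 8 and 7 fell in WT at days 1, 3 and 7 and 5, 7 and 5 in KO, while 1 rose in WT at day 1 and 2 in KO at day 3. Dnajc27 (RBJ), a small GTPase with a J domain, fell by 0.62 ± 0.18, 1.27 ± 0.19 and 0.93 ± 0.19 in WT and by 1.5 ± 0.18 and 0.88 ± 0.19 at days 3 and 7 in KO. Dnajc12, which binds aromatic amino acid hydroxylases, fell by 0.81 ± 0.12, 0.99 ± 0.13 and 0.63 ± 0.13 in WT and by 0.61 ± 0.13, 0.96 ± 0.12 and 0.53 ± 0.13 in KO. Dnajc18 fell by 0.32, 0.59 and 0.54 in WT and by 0.31, 0.81 and 0.56 in KO. Dnajc7 (TPR2), which carries clients between HSP70 and HSP90, fell at days 3 and 7 (by 0.36 and 0.26 in WT). Dnajb14, of the ER membrane, fell in 5 of the 6 comparisons (-0.77 in WT and -0.73 in KO at day 3) and Dnajc16, also of the ER, fell at days 3 and 7 in WT (-0.41 and -0.31) and at each day in KO (-0.29, -0.60 and -0.46). Dnajc28 fell in WT on days 1 and 3, at least 1.63-fold and 1.56-fold, and on day 3 in KO, at least 1.43-fold. These bounds set values under log2 4, found on 1 or 2 injured arrays of each group, to 4. Dnajc4 fell in WT at day 1 (-0.28), Dnajc14 rose there (0.23), and Hspbp1, an exchange factor, fell in WT at days 3 and 7 (-0.21 and -0.23). Dnajb12 passed as higher in KO at day 3 (0.10). It read 6.80, 6.80, 6.80, 6.98 and 7.02 there and 6.71, 6.80, 6.80 and 6.80 in KO sham, so most of these arrays were equal. With the caudal Hox mean in the fit the Dnajb12 call was lost (0.11, adjusted p 0.129 in limma). Hspb11, a cilia transport protein, fell in KO at day 1 (-0.32) and rose at day 3 (0.24). That rise was lost with the caudal Hox mean in the fit (0.11, adjusted p 0.442 in limma). The lowest Dnajc6 and Dnajc27 values were on KO day 3 replicates 3 and 4, at 9.44 and 9.79 for Dnajc6 and 8.44 and 8.45 for Dnajc27, and these arrays had the lowest neuron means of their group, 10.02 and 10.18. The part of the neuron genes in these falls was not tested. The 12 members that were not tested were Hspa1l, Hspb2, Hspb3, Hspb9, Dnajb3, Dnajb7, Dnajb8, Dnajb13, Dnajc5b, Dnajc5g, Dnajc22 and Dnajc25, of which the first 3 exceeded log2 4 on any array.

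Both steps between days held calls among the members. As the mean of both genotypes, 33 fell and 6 rose from day 1 to day 3, against 34.3% of all tested genes that fell and 26.1% that rose. Of the 8 cytosolic J proteins of types A and B, 7 fell, as did 5 of the 7 mitochondrial members and 6 of the 10 cytosolic HSP70, HSP110 and HSP90 genes. From day 3 to day 7, 22 fell and 13 rose, against 21.3% and 24.8% of all genes. Those that fell included all 4 small heat shock proteins and 6 of the 8 ER genes. Of these, Hspb7 exceeded log2 4 on only 9 of the 34 arrays, among them 3 WT and 2 KO arrays of day 3. It read 11.35 on KO day 3 replicate 3, the array with the highest muscle mean. Those that rose included Dnajc6 (0.52 ± 0.13), Dnajc27 (0.48 ± 0.13), Dnajc12 (0.39 ± 0.09) and Hspa2 (0.46 ± 0.07). Among members that passed, none changed 2-fold from day 1 to day 3, and 4 fell 2-fold from day 3 to day 7, Hspb7 among them. The 13 that rose were 8 without WT day 3 replicate 2, without KO day 3 replicate 4 or without WT day 7 replicate 2. Taking for each of the 60 genes the day of its largest absolute difference, whether it passed or not, day 1 held 14 higher and 2 lower genes in WT, day 3 held 9 and 20, and day 7 held 4 and 11. In KO the counts were 13 and 1, 15 and 24, and 2 and 5. These counts by day were not made over all tested genes and describe the members alone.

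No member passed between the genotypes with the groups as fitted. KO against WT called 0 of the 60 in sham, where 0.0667% of all genes passed, and 0 at day 1 (0.859%), day 3 (0.0334%) and day 7 (0.0334%) in limma. The genotype difference in the injury response, KO minus WT, also called 0 of the 60 at days 1, 3 and 7, against 0.142%, 0% and 0.00834% of all genes. At an unadjusted p under 0.05 there were 0, 4, 4 and 1 of the 60 in the 4 comparisons of genotype and 1, 0 and 2 in the 3 of the response. Of all tested genes, 4.1%, 9.7%, 11.5% and 4.8% had such a p in the former. In the latter 6.34%, 7% and 3.29% did. The members with the smallest p were Hspb11 at day 1 (-0.27 ± 0.10, adjusted p 0.261), a protein of cilia transport, Dnajc13 at day 3 (0.17 ± 0.08, adjusted p 0.393), Dnajb1 at day 7 (0.21 ± 0.07, adjusted p 0.816) and Hspa2 for the response at day 1 (0.43 ± 0.15, adjusted p 0.471). Hspb11 passed at day 1 without WT day 3 replicate 2 (-0.27, adjusted p 0.0207). With the caudal Hox mean in the fit, which differs between the sham groups, Dnajb6 (-0.34), Dnajc27 (-0.70) and Hspa4l (-0.69) passed as lower in KO sham, with adjusted p from 0.0402 to 0.0468. With it 5 members passed for the response at day 1, Dnajb6 (0.38), Dnajc5 (0.42), Dnajc27 (0.87), Hspa4l (0.76) and Dnajc3 (-0.58). The difference lay within 0.5 log2 units for 58 of the 60 in sham and for 60, 59 and 59 at days 1, 3 and 7. For Hspb1, KO minus WT was 0.19 ± 0.22 at day 1 with a 95% interval from -0.27 to 0.65, and -0.29 ± 0.23 at day 7 with an interval from -0.77 to 0.19. For Hspa5 at day 1 it was -0.13, from -0.33 to 0.08. These intervals do not show that the genotypes act alike. Among the genes of the pathway lists, Pfdn6 alone passed by genotype, 0.23 ± 0.05 higher in KO at day 1 (adjusted p 0.0334).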

How the data were processed

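Per the labels, biotinylated cRNA of spinal cord was read on Affymetrix arrays, 1 for each sample. The authors deposited log2 values per probe set. GCRMA made them, per the submitters' notes on processing, which give no version. GCRMA corrects background by probe sequence and normalises by quantiles, and low signals are pulled to a floor, which shrinks differences of dim genes. The deposited values ran from 2.17 to 15.9 with array medians from 4.14 to 4.39 and were used unchanged.

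Of 45101 probe sets, 34945 carry 1 gene symbol. The probe set with the highest mean of the 34 arrays stood for a gene, and a gene was tested if it exceeded log2 4 on 4 or more arrays. Of the 72 members, 12 were below this. R 4.3.3 with limma 3.58.1 (lmFit, eBayes) fitted 1 mean per group over all 8 groups, with Benjamini-Hochberg adjustment over 11993 genes in each of 15 comparisons and a threshold of 0.05. The procedure was tested on simulated data.

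The members and lists were chosen with earlier results of these data known. The rule for named genes takes the 4 largest rises and 4 largest falls among members that passed in each injury comparison, the smallest p between genotypes, and a fixed set of well-known chaperones. Others are named to account for the members. Alternatives were the groups of the comparison alone, the mean of all probe sets, no filter, a floor at log2 4, centring, a replicate block, the caudal Hox mean as a covariate and leaving out arrays.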

Additional observations from a re-analysis of the deposited data

Results flagged for a closer look

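In 264 sets of values, those of 33 named members in 8 groups, 25 held an array whose gap to the nearest other exceeded Dixon's limit, and chance alone flags about 1 set in 20. WT day 3 replicate 2 stood apart for 5 of the 33, with Hsph1 at 10.45 (others 11.23 to 11.38), Dnaja1 at 11.74 (others 12.19 to 12.24), Hspd1 at 11.58 (others 11.94 to 12.01) and Hspe1 at 11.50 (others 11.72 to 11.75) below the group, and Dnajc1 at 9.74 (others 9.32 to 9.36) above it. KO day 3 replicate 3 was high for Hspb6 at 10.77 (others 8.12 to 8.40) and Hspb8 at 10.65 (others 9.25 to 9.65), and KO day 3 replicate 5 was high for Dnajb1 at 9.83 (others 9.63 to 9.66).

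In the sham groups, the library labelled KO sham replicate 2 was high for Hspa8 at 14.94 (others 14.84 to 14.85). KO sham replicate 3 was high for Hspb11 at 9.32 (others 9.14 to 9.17) and Hspb8 at 8.72 (others 8.62 to 8.63). WT sham replicate 3 was low for Dnaja1 at 12.40 (others 12.87 to 12.91), and WT sham replicate 4 was low for Dnaja4 at 8.35 (others at 8.41).

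At day 1, Dnajc12 was low on WT replicate 4 at 8.26, Dnajc3 was high on KO replicate 1 at 11.16 (others 10.83 to 10.86) and Dnajc30 was high on KO replicate 2 at 8.83. At day 7 in WT, replicate 2 was high for Dnajc12 at 9.02 (others 8.54 to 8.59) and for Dnajc27 at 9.78, and replicate 4 was low for Hspa5 at 13.02 (others 13.21 to 13.23) and for Hspa12b at 2.81. At day 7 in KO, replicate 2 was high for Dnajb11 at 8.95 and low for Dnajc3 at 10.77, replicate 3 was high for Dnaja4 at 8.14 and low for Hspa4l at 9.96, and replicate 1 was low for Dnajc9 at 9.10.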

How the results depend on the processing

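Of 161 counts compared with their main value under the alternatives that change the processing, 156 stayed within 1.5 times of it. With the mean of the caudal Hox genes in the fit, 22 members rose in WT at day 3 (13 in the main analysis), 7 rose from day 3 to day 7 (13), 3 were called by genotype in sham (Dnajb6, Dnajc27 and Hspa4l) and 5 for the response at day 1 (those 3, Dnajc3 and Dnajc5). With only the groups of the comparison in the fit, 7 rose from day 3 to day 7. Without both WT day 3 replicate 2 and the library labelled KO sham replicate 2, an alternative chosen after seeing the data, 8 rose from day 3 to day 7 and 1, Hspb11, was called by genotype at day 1. The cause of these changes was not tested. Leaving out each array in turn gave 8 to 17 members higher from day 3 to day 7, 6 to 12 lower in KO at day 1 and 0 to 1 called by genotype at day 1. No named call reversed under any alternative.

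Of 188 calls of named members, 184 held with centring, 177 with the mean of probe sets, 182 with no filter, 173 with only the groups compared, 183 with a floor at log2 4, 175 without both arrays and 159 with the Hox covariate. The replicate numbers were not treated as pairs in the main fit. The 113 pairs of the same number had a median correlation of deviations of 0.004 (-0.513 to 0.557), and the 392 other pairs had -0.015. Of 34 arrays, 6 correlated best with their own number. Such correlations cannot show whether samples of the same number shared a batch. With a replicate block, 21 rose and 17 fell in WT on day 1 (13 and 25 on day 3, 11 and 28 on day 7), in KO 17 and 10 (19 and 23, 11 and 22), and 184 of the 188 calls held. Signal near background limits Hspa12b, Hspb7, Hspbap1 and Dnajc28 and leaves 12 members without a value.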
